A study of Mus musculus with 21 samples.

Results

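The 10 genes described here are the Notch receptors Notch1, Notch2, Notch3 and Notch4, the ligands Jag1, Jag2 and Dll1, and the Notch target genes Hes1, Hey1 and Heyl, found by symbol among the 24594 genes of each count table. Their mRNA was measured by RNA-seq in mouse embryos, with 3 libraries for each of 4 genotype and 3 stage groups. The genotype libraries came from pharyngeal arch 2 or 3 (PA2 or PA3) of E10.5 embryos (E, embryonic day), either wild type (WT) or HIRE1del/del (HIRE1del below), which lack a CRISPR-deleted enhancer region on chromosome 6 that the study links to the Hoxa genes, on a mixed C57Bl/6J;CD1 background. The study states that cells of embryos of both sexes were pooled. The stage libraries came from WT cranial neural crest cells of Wnt1::Cre;ROSA-RFP embryos, sorted by red fluorescence from E10.5 PA2 and from the E12.5 and E14.5 pinna (the external ear, built by PA2 crest). The Wnt1 promoter drives Cre in premigratory neural crest progenitors, so the reporter marks their descendants whatever they later become. Tissue was digested with trypsin at E10.5 and E12.5 and with papain at E14.5, so age and enzyme cannot be told apart at E14.5. The comparisons ask how these genes differ between the arches, what loss of HIRE1 does to them, and how they move as PA2 crest builds the pinna.

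Notch signalling passes between touching cells. A Jagged or Delta ligand on one cell binds a Notch receptor on its neighbour, the receptor is cut by ADAM proteases and then by gamma-secretase, and the freed intracellular part enters the nucleus and turns the DNA-binding protein RBPJ from a repressor into an activator. Hes1, Hey1 and Heyl encode basic helix-loop-helix repressors of the Hes and Hey families, which are among the best-known genes switched on in this way. In the pharyngeal arches, Jag1 and Notch2 are known for their part in patterning the facial skeleton, and loss of function of either human gene causes Alagille syndrome.

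The 7 groups held 25.8 to 49.1 M (mega) counts per library. All libraries are labelled cranial neural crest cells, and the 6 crest mesenchyme markers were each at 1 CPM (counts per M counts) or more in every group, but sorting is stated only for the stage series. The dissected arches of the genotype series also held endothelial markers (7 genes, 291 to 379 summed CPM in WT libraries), epithelial markers (7 genes, 219 to 605) and blood markers, whereas in sorted PA2 crest at E10.5 the same endothelial and epithelial sums were 7.43 to 10.4 and 10.8 to 12.8 CPM. A level in these bulk libraries therefore sums over cell types, and fewer cells of a type cannot be told apart from less RNA per cell. Replicate 1 of both WT arches stood apart in Y-linked transcripts (4 genes, 0.27 summed CPM in PA2 and 6.7 in PA3, against 117 to 270 in the other 10 genotype libraries). The PA2 value goes against a pool of both sexes in that library, and results that rest on replicate 1 of the WT arches are given with and without it. Hoxa2, the gene by which the deletion can be checked, was at 73.4, 77.2 and 84.2 CPM in the PA2 WT libraries and at 5.75, 4.75 and 7.09 CPM in PA2 HIRE1del, and at 56.1 to 65.1 CPM in PA3 WT against 22.1 to 25.6 CPM in PA3 HIRE1del, with no overlap between genotypes.

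Levels of different genes were compared per kilobase of exon. Notch2 (chromosome 3, 98013527 to 98150361, GRCm38) and Notch3 (chromosome 17, 32120820 to 32166852) made up most of the receptor mRNA in every group, and Notch1 (chromosome 2, 26457903 to 26516663) made up 9.03% to 18.4% of the summed receptor CPM per kb in group means. Notch2 was the leading receptor in PA2 WT at 49.7% ± 1.76 (SD, n = 3) of that sum, with Notch3 at 33% ± 0.945. In PA3 WT the order was the other way round, with Notch3 at 46.4% ± 0.85 and Notch2 at 35.3% ± 0.708. In sorted crest, Notch2 took 49% ± 1.55 at E10.5, 70.8% ± 1.14 at E12.5 and 64.3% at E14.5 (62.9% to 65.6%), while Notch3 took 39.1%, 20.2% and 18.3%.

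Notch4 (chromosome 17, 34564268 to 34588503), the receptor best known from endothelium, was the one member under the filter for testing (1 CPM in 2 libraries) in both tables. It had 2 to 24 counts in the genotype libraries (0.0774 to 0.772 CPM), the lowest in a PA2 WT library and the highest in a PA3 WT library. It had no count in any of the 9 sorted libraries, where 3 counts, the floor set here for a count of 0, are 0.0631 to 0.111 CPM.

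Jag1 (chromosome 2, 137081456 to 137116644) led these 3 ligands in every group, with group means from 65.6% to 89.9% of the summed ligand CPM per kb. Jag2 (chromosome 12, 112907819 to 112929776) was next in each group, at 8.46% to 32.7%, and Dll1 (chromosome 17, 15367354 to 15376872) was lowest at 1.67% to 7.13%. Among the targets, Hes1 (chromosome 16, 30064384 to 30067796) made up 58.6% ± 0.83 of the summed target CPM per kb in PA2 WT and 45.5% ± 2.36 in PA3 WT. Hey1 (chromosome 3, 8663359 to 8667256) made up 37.3% ± 1.22 and 49.3% ± 1.76 of it in these arches. Heyl (chromosome 4, 123233556 to 123249875) stayed at 0.924% to 5.14% in the group means.

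**Figure D1:**
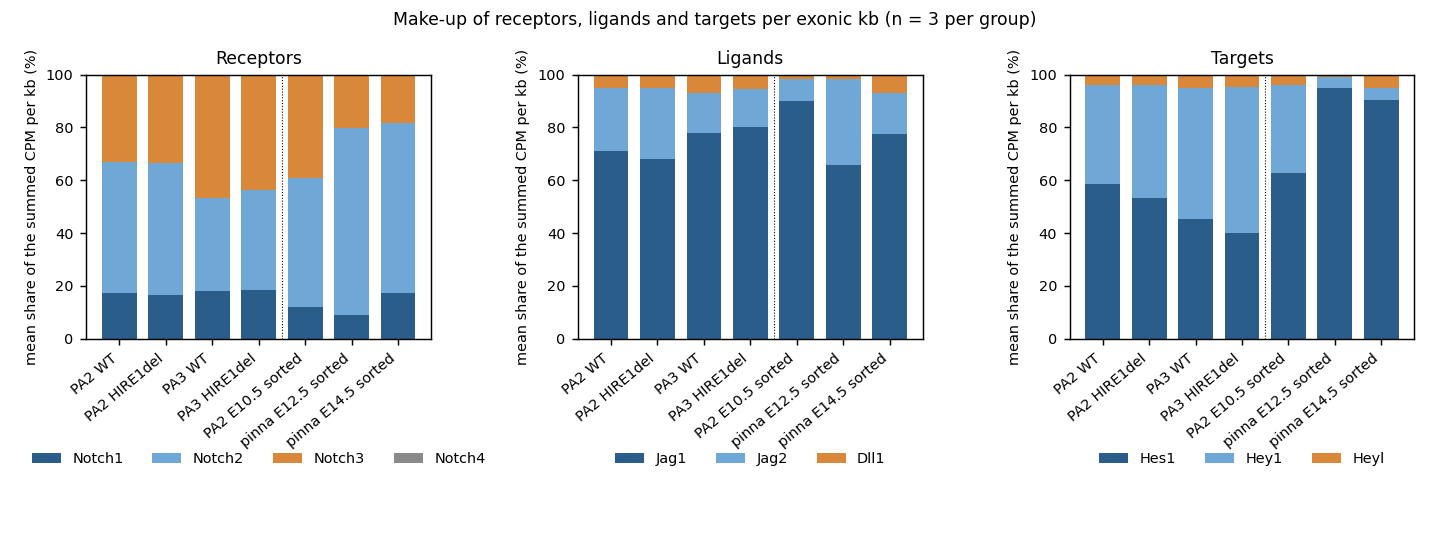
Mean share (%) of each gene in the summed CPM per exonic kb of its role, for receptors, ligands and targets, in the 4 genotype groups (left of the dotted line) and the 3 sorted stage groups (right), n = 3 libraries each. Notch2 led the receptors in every group but those of PA3, Jag1 led the ligands throughout, and Hes1 was 62.9% of the targets in sorted PA2 and 95% in the E12.5 pinna; Notch4 is too low to be seen.

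Seen within each library, the ratio of Notch3 to Notch2 per kb was 0.62, 0.699 and 0.679 in PA2 WT and 1.3, 1.37 and 1.27 in PA3 WT. The arches did not overlap in WT or in HIRE1del, where the ratio was 0.621 to 0.745 in PA2 and 1.1 to 1.2 in PA3. A two-sided exact permutation test over unpaired libraries gave p = 0.1 for each. Over the 21 ratio comparisons made by this test the adjusted p was 0.124. With 3 against 3 libraries taken as unpaired, 0.1 is the smallest p, so the test could not reach 0.05. It did not use the replicate numbers shared between the arches. The ratio of Hes1 to Hey1 per kb was 1.94 ± 0.389 (SD, n = 3) in sorted PA2, 24.1 ± 4.75 in the E12.5 pinna and 19.6 ± 1.5 in the E14.5 pinna, and the E12.5 and E14.5 libraries overlapped.

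From PA2 crest at E10.5 to the pinna at E12.5, the receptors and the targets each split. Hey1, Heyl, Notch3, Jag1 and Notch1 fell, while Jag2, Hes1 and Notch2 rose. By edgeR's quasi-likelihood test, 3 of 9 tested members were called higher and 5 lower at an adjusted p under 0.05, beside 68.8% of all tested genes called (35% higher and 33.7% lower), so being called was common here. With a log2 fold change of at least 1 also required, 4 members remained called (Jag2 and Hes1 higher, Hey1 and Heyl lower), beside 21.6% of all genes.

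Hey1 fell furthest of the members. It was at 41.5, 28.1 and 25.7 CPM in the sorted PA2 libraries, at 5.79, 4.7 and 5.17 CPM at E12.5 and at 2.64, 3.41 and 2.82 CPM at E14.5. The 3 stages did not overlap. The log2 fold change was -2.61 (SE 0.186, edgeR adjusted p = 3.47e-07) from E10.5 to E12.5 and -0.82 (SE 0.198, edgeR adjusted p = 0.00374) from E12.5 to E14.5. Heyl instead dipped, from 6.59, 6.21 and 5.13 CPM at E10.5 to 1.6, 1.83 and 2.28 CPM at E12.5, and then stood at 4.87, 4.29 and 5.67 CPM at E14.5. Its E12.5 libraries lay below all the others, and those of E10.5 and E14.5 overlapped (edgeR log2 fold changes -1.65, SE 0.193, adjusted p = 1.65e-05; 1.37, SE 0.191, adjusted p = 7.47e-05; and, over the whole interval, -0.27, SE 0.176, adjusted p = 0.168).

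Hes1 took the opposite course to Heyl. It was at 33, 32 and 30 CPM at E10.5, at 57.7, 64.8 and 76.2 CPM at E12.5 and at 27.1, 33.4 and 32.1 CPM at E14.5. The E12.5 libraries were above all the others, and the outer stages overlapped. Hes1 rose by a log2 fold change of 1.07 (SE 0.108, edgeR adjusted p = 5.4e-06) and then fell by 1.10 (SE 0.107, edgeR adjusted p = 4.76e-06), leaving -0.04 (SE 0.108, adjusted p = 0.756) between E10.5 and E14.5.

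Among the ligands, Jag2 rose to E12.5 and came partly back. Its libraries were at 5.29, 5.7 and 4.05 CPM, then at 14.6, 14.53 and 13.1 CPM, then at 6.78, 8.12 and 6.83 CPM, with no overlap between stages. The edgeR log2 fold changes were 1.49 (SE 0.143, adjusted p = 3.47e-06) and -0.96 (SE 0.137, adjusted p = 9.26e-05). Jag1 moved against it, from 61.3, 47.3 and 44.2 CPM to 27, 25.8 and 27.8 CPM and then to 37, 33.5 and 34.5 CPM. These stages were also apart, and the edgeR log2 fold changes were -0.92 (SE 0.11, adjusted p = 1.96e-05) and 0.38 (SE 0.11, adjusted p = 0.00967), the second no longer called with scaling by total counts only (0.26, adjusted p = 0.0507).

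Dll1 was barely detected in crest until E14.5. It had 11 to 27 counts per library at E10.5 and E12.5 (0.359 to 0.903 CPM) and 99 to 116 at E14.5 (2.38, 2.44 and 2.17 CPM). The E14.5 libraries were above all 6 earlier ones, by a log2 fold change of 2.16 over E12.5 (SE 0.297, edgeR adjusted p = 7.01e-05), and Dll1 was not called between E10.5 and E12.5 (-0.42, SE 0.327, adjusted p = 0.276). Of the exon bases of Dll1, 867 (20.5%) lie in exons of the antisense gene A930024N18Rik, and in libraries made without strand the reads of both genes cannot be told apart there.

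Of the receptors, Notch2 was at 446, 439 and 503 CPM at E10.5, at 712, 629 and 731 CPM at E12.5 and at 555, 519 and 537 CPM at E14.5. The E12.5 libraries were the highest, and those of E14.5 lay between the other stages. The rise to E12.5 (log2 0.58, SE 0.0735, edgeR adjusted p = 3.22e-05) and the fall after it (log2 -0.36, SE 0.0733, adjusted p = 0.00113) were both called. The net rise from E10.5 to E14.5 was small (log2 0.21, edgeR adjusted p = 0.0179) and was not called without replicate 1 or 2 of E10.5 or replicate 1 of E14.5 (log2 0.19, 0.18 and 0.20, adjusted p = 0.0604, 0.0811 and 0.0551), nor with scaling by total counts only (log2 0.15, adjusted p = 0.0966).

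Notch3 fell at each step, from 259, 285 and 287 CPM to 166, 131 and 148 CPM and then to 122, 98.3 and 124 CPM, and its stages did not overlap. The edgeR log2 fold changes were -0.90 (SE 0.104, adjusted p = 1.55e-05) and -0.37 (SE 0.104, adjusted p = 0.00901). Notch1 dipped and then rose, from 146, 145 and 152 CPM to 121, 105 and 123 CPM and then to 190, 187 and 200 CPM, again without overlap. Its edgeR log2 fold changes were -0.34 (SE 0.0671, adjusted p = 0.000795) and 0.73 (SE 0.067, adjusted p = 3.21e-06). Between E12.5 and E14.5 all 9 tested members were called, 4 higher (Notch1, Jag1, Dll1, Heyl) and 5 lower (Notch2, Notch3, Jag2, Hes1, Hey1), beside 65.7% of all genes (32.6% higher and 33.1% lower). With a log2 fold change of at least 1 also required, Dll1 and Heyl remained called higher and Hes1 lower, beside 19.7% of all genes. Over the whole interval 7 of 9 were called, 4 higher (Notch1, Notch2, Jag2, Dll1) and 3 lower (Notch3, Jag1, Hey1), beside 82% of all genes (42% higher and 40% lower), and 3 of them with a log2 fold change of at least 1 (Dll1 higher, Notch3 and Hey1 lower), beside 39.3%. The 3 stage comparisons share libraries, so their counts are not independent of each other.

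**Figure D2:**
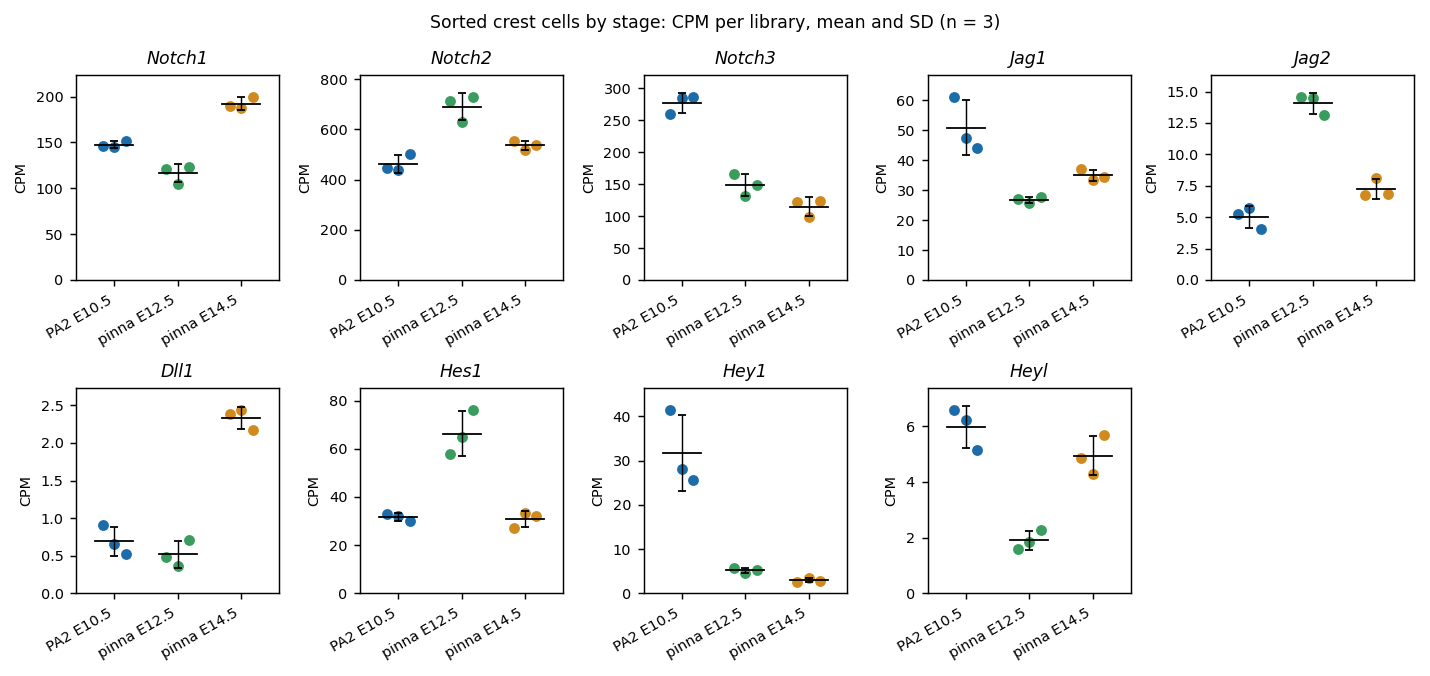
CPM per library (points) with the mean (line) and SD (bar) of 3 libraries, for the 9 detected members in sorted crest of PA2 at E10.5 and the pinna at E12.5 and E14.5. Hey1 and Notch3 were highest at E10.5, Notch2, Jag2 and Hes1 at E12.5, and Notch1 and Dll1 at E14.5, while Heyl and Jag1 were lowest at E12.5.

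Markers of other cells moved over the same stages in the sorted libraries. The summed glial markers (5 genes) were 20.5 to 23.4 CPM at E10.5, 21.6 to 25.6 at E12.5 and 84.3 to 99.8 at E14.5, the mural cell markers (5 genes) 359 to 398, 568 to 710 and 1240 to 1490 CPM, and the epithelial markers (7 genes) 10.8 to 12.8, 11.3 to 14.8 and 26.8 to 45.8 CPM. The endothelial sum (7 genes) went from 7.43 to 10.4 CPM at E10.5 to 112 to 175 CPM at E14.5. Of the 7 genes, 2 had a mean of 1 CPM or more at E10.5 and 4 at E14.5. Kdr alone had a mean of 141 CPM at E14.5, and Pecam1, Cdh5 and Tie1 of the same list had means of 2.43, 2.18 and 0.911 CPM. The crest mesenchyme sum was 1610 to 1860, 3420 to 3700 and 3630 to 4030 CPM, the neuronal sum was 34.3 to 39.7 CPM at E10.5 and 10.9 to 17.4 CPM at E14.5, and blood and skeletal muscle markers summed to at most 13 and 1.22 CPM. Their part in the stage differences of the members was not tested.

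The other genes of the pathway, a list of 40 ligands, ligases, glycosyltransferases, proteases, nuclear partners, inhibitors and targets, was called about as often as all genes, and more often higher than lower. Of 35 that passed the filter, 18 were called higher and 5 lower from E10.5 to E12.5 (65.7% of the 35 called and 51.4% higher, beside 68.8% and 35% of all genes). From E12.5 to E14.5 the counts were 18 and 4 (62.9% called and 51.4% higher, beside 65.7% and 32.6%), and over the whole interval 21 and 4 (71.4% called and 60% higher, beside 82% and 42%). Without replicate 2 of E10.5, 15 in place of 23 were called from E10.5 to E12.5, and with a log2 fold change of at least 1 also required 9, 5 and 13 remained in the 3 comparisons. The list's median log2 fold change over the whole interval was 0.39 and that of all genes 0.02. Among the 10 genes for the proteases that cut the receptor, 8 were called higher and none lower over the whole interval, and of the 8 inhibitor and turnover genes 6 were called higher and 1 lower, both to be read beside the 82% of all genes called and 42% higher.

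The endothelial ligand gene Dll4 had the largest change of this list. It was at 0.401, 0.412 and 0.359 CPM at E10.5, at 2.12, 1.73 and 3.16 CPM at E12.5 and at 9.65, 9.15 and 6.77 CPM at E14.5, with each stage above the one before (log2 4.43 from E10.5 to E14.5, SE 0.283, edgeR adjusted p = 4.38e-08). Over the same interval the ligand-like gene Dlk2 rose by 4.12 (adjusted p = 8.36e-07), Lfng, which adds sugars that tune the receptors to their ligands, by 2.99 (adjusted p = 3.24e-06), and Neurl1b, a ubiquitin ligase gene, by 2.17 on the log2 scale (edgeR adjusted p = 1.33e-07). From E10.5 to E12.5 the largest called change was that of Dlk2 (log2 2.88), followed by Dll4 (2.57), Dtx1 (2.02), of the Deltex family, and the gamma-secretase gene Aph1c (1.47). From E12.5 to E14.5 it was that of Lfng (2.16), followed by Dll4 (1.87), the feedback inhibitor gene Nrarp (1.74) and the neurogenic relative Hes6 (-1.25), with Nrarp at 0.34 to 0.62 CPM at E12.5 and 0.661 to 2.5 CPM at E14.5. Nrarp was also called lower from E10.5 to E12.5 (log2 -1.25, edgeR adjusted p = 0.0393), a call lost on leaving out any library of E10.5 or replicate 1 or 3 of E12.5 (adjusted p from 0.0511 to 0.126). Rbpj, the DNA-binding partner of all 4 receptors, was not called in any stage comparison by the test used throughout (log2 -0.18, -0.09 and -0.27, edgeR adjusted p = 0.204, 0.501 and 0.051). Over the whole interval it lay at the threshold, and 7 of 13 alternatives called it lower, among them DESeq2 size factors (log2 -0.28, edgeR adjusted p = 0.0457), total counts only (log2 -0.34, adjusted p = 0.0202) and the DESeq2 test (log2 -0.28, adjusted p = 0.0329). Hes5 and Hey2 did not pass the filter, with means of at most 0.123 and 0.629 CPM.

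Between the arches at E10.5, PA3 held more Jag1, Dll1, Hey1 and Notch3 mRNA than PA2 in WT embryos, and less Notch2. In WT, 5 of 9 tested members were called by edgeR's quasi-likelihood test, 4 higher and 1 lower in PA3, beside 36.5% of all tested genes (19.1% higher and 17.4% lower). In HIRE1del, 4 were called, 3 higher and 1 lower, beside 33.4% of all genes (18.7% higher and 14.7% lower). These arch comparisons of the 2 genotypes share no library.

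Jag1 was at 116, 110 and 111 CPM in PA2 WT and at 220, 176 and 182 CPM in PA3 WT. In HIRE1del it was at 116, 114 and 87 CPM in PA2 and at 197, 225 and 168 CPM in PA3. Every PA3 library was above every PA2 library, by a log2 fold change of 0.78 in WT (SE 0.12, edgeR adjusted p = 0.000296) and 0.90 in HIRE1del (SE 0.121, edgeR adjusted p = 0.000104). The WT value was 0.70 (edgeR adjusted p = 0.00435) without WT replicate 1 of both arches.

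Dll1 was at 6.23, 5.26 and 6.16 CPM in PA2 WT and at 16.1, 11.3 and 10.46 CPM in PA3 WT, and in HIRE1del at 6.8, 5.34 and 5.1 CPM and at 9.88, 10.9 and 7.93 CPM. The arches did not overlap in either genotype, and the log2 fold changes were 1.10 (SE 0.18, edgeR adjusted p = 0.00044) and 0.74 (SE 0.183, edgeR adjusted p = 0.00733). The highest value was that of WT replicate 1, and without this replicate of both arches the WT log2 fold change was 0.93 (edgeR adjusted p = 0.00456). The overlap with A930024N18Rik applies to these values too.

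Among the targets that are members, only Hey1 was called between the arches by the test used throughout. It was at 61.1, 59 and 53.6 CPM in PA2 WT and at 95.2, 81.5 and 84 CPM in PA3 WT. In HIRE1del it was at 72.3, 68.5 and 47.9 CPM and at 110, 113 and 82.8 CPM. PA3 was higher without overlap in both genotypes. The log2 fold changes were 0.59 in WT (SE 0.142, edgeR adjusted p = 0.00592) and 0.70 in HIRE1del (SE 0.142, edgeR adjusted p = 0.00217). That of WT was 0.56 and nearer the threshold (edgeR adjusted p = 0.0413) without WT replicate 1 of both arches. Heyl leaned the same way but was not called (log2 0.49, SE 0.23, adjusted p = 0.111 in WT; log2 0.57, SE 0.233, edgeR adjusted p = 0.078 in HIRE1del). With the replicate number as a block, which the libraries of 1 genotype share between arches, Heyl was called in HIRE1del (log2 0.58, edgeR adjusted p = 0.0357). Hes1 was then called lower in PA3 WT (log2 -0.18, edgeR adjusted p = 0.0498). Its log2 fold change without the block was -0.19 (edgeR adjusted p = 0.117), and -0.11 (edgeR adjusted p = 0.489) also without WT replicate 1 of both arches.

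Notch2 was at 303, 324 and 305 CPM in PA2 WT and at 225, 181 and 214 CPM in PA3 WT, and in HIRE1del at 328, 316 and 287 CPM and at 208, 197 and 210 CPM. PA2 was above PA3 in every library of both genotypes, and the PA3 minus PA2 log2 fold changes were -0.59 (SE 0.0737, edgeR adjusted p = 5.61e-05) and -0.60 (SE 0.0738, edgeR adjusted p = 4.92e-05). Notch3 was at 141, 170 and 155 CPM in PA2 WT and at 219, 186 and 205 CPM in PA3 WT, which did not overlap (log2 0.39, SE 0.0769, edgeR adjusted p = 0.00165; 0.27, adjusted p = 0.0293, without WT replicate 1 of both arches). In HIRE1del it was at 161, 147 and 161 CPM in PA2 and at 187, 165 and 173 CPM in PA3, again without overlap but not called (log2 0.16, SE 0.077, edgeR adjusted p = 0.124). The difference between these arch effects is the same quantity as the difference of the genotype effects given below, and it did not pass the test.

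Notch1 did not differ by the test in either genotype (log2 -0.02 and -0.06, edgeR adjusted p = 0.87 and 0.628), and its libraries lay between 122 and 154 CPM in all 4 groups. Jag2 was at 38.2 to 40.8 CPM in PA2 WT and at 35.8 to 42.3 CPM in PA3 WT (log2 -0.01, edgeR adjusted p = 0.933). In HIRE1del it was at 44.8, 44.5 and 39.7 CPM in PA2 and at 37.3, 33.3 and 39.8 CPM in PA3, ranges that met. It lay just outside the threshold (log2 -0.22, SE 0.0821, edgeR adjusted p = 0.0502). Of 12 alternatives 6 called it lower, among them the replicate block (log2 -0.23, edgeR adjusted p = 0.0472) and DESeq2 size factors (log2 -0.23, edgeR adjusted p = 0.046). The calls in HIRE1del were then 4 higher and 2 lower with the block, Heyl included, and 3 higher and 2 lower with DESeq2 size factors.

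**Figure D3:**
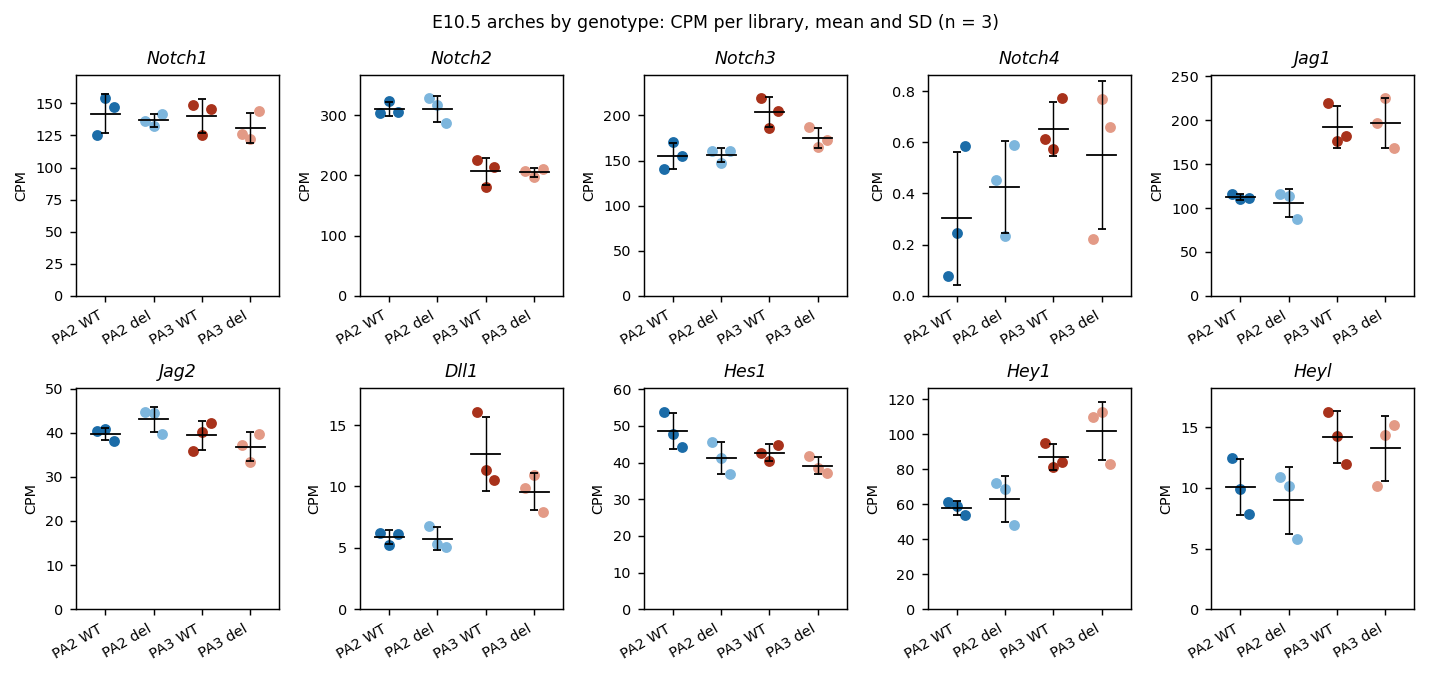
CPM per library (points) with the mean (line) and SD (bar) of 3 libraries, for the 10 members in PA2 and PA3 of WT and HIRE1del (del) embryos at E10.5. Jag1, Dll1 and Hey1 were higher and Notch2 lower in PA3 in both genotypes, and within an arch the points of the 2 genotypes overlap for every member. How often they overlap over all genes was not measured.

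The arches also differed in markers of other cells. In WT, the summed blood markers (6 genes found) were 903 to 1530 CPM in PA2 and 7560 to 15600 in PA3, the epithelial markers (7 genes) 219 to 243 and 472 to 605, the neuronal markers (8 genes) 25.6 to 28.9 and 96 to 161, the glial markers (5 genes) 44.2 to 49.5 and 98.8 to 133, the mural cell markers (5 genes) 208 to 245 and 279 to 332, and the endothelial markers (7 genes) 291 to 305 and 353 to 379 CPM. The crest mesenchyme markers (6 genes) were lower in PA3, at 641 to 808 against 1000 to 1120 CPM, and so were the skeletal muscle markers (5 genes), at 13.3 to 20.8 against 25.1 to 27.2 CPM. The same lists differed in the same directions in HIRE1del, where the neuronal sum was 15.6 to 22 CPM in PA2 and 69.3 to 175 in PA3. Their part in the arch differences of the members was not tested.

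Of the 37 other pathway genes that passed the filter in this table, 12 were called higher and 6 lower in PA3 WT (48.6% called, beside 36.5% of all genes), and 8 and 6 in PA3 HIRE1del (37.8%, beside 33.4% of all genes). The median log2 fold change in WT was 0.11 for the list and -0.00065 for all genes. Without WT replicate 1 of both arches, 9 were called in WT, 5 of them higher, and without replicate 1 of PA3 HIRE1del 9 were called in HIRE1del. The largest called changes were those of Hey2, a further Hey family target, Mfng, a glycosyltransferase of the Fringe family, and Nrarp. Hey2 was at 2.67, 2.67 and 2.56 CPM in PA2 WT and at 12.1, 11.3 and 10.2 CPM in PA3 WT, 4.24-fold apart without overlap (log2 2.08, SE 0.181, edgeR adjusted p = 2.8e-06).

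Mfng and Nrarp were higher in PA3 WT by a log2 fold change of 1.47 (adjusted p = 3.12e-06) and 0.81 (adjusted p = 0.000187), and Dtx4, of the Deltex family, was lower by -0.68 (edgeR adjusted p = 5.61e-05). In HIRE1del, the log2 fold changes of Hey2, Mfng and Nrarp were 1.90, 1.21 and 0.89, and that of the ubiquitin ligase gene Neurl1b was 0.83, all called. Dll4 (log2 0.41, edgeR adjusted p = 0.015), Lfng (0.48, adjusted p = 0.0297) and Rbpj (-0.22, adjusted p = 0.016) were called in WT but not without replicate 1 of both arches (adjusted p = 0.103, 0.401 and 0.107), nor in HIRE1del (log2 0.29, 0.36 and -0.14). The group of other targets and Hes or Hey family genes held 3 tested genes, Hey2, Nrarp and a Hes family relative. All 3 were called higher in PA3 in both genotypes, beside 19.1% of all genes in WT and 18.7% in HIRE1del.

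The core of the RBPJ motif is TGGGAA, and it was searched on both strands of the RefSeq promoters (GRCm38.p6, 250 bases before to 50 after the start). Promoters were matched for 7 of the 10 members (8 promoters), not for Hes1, Hey1 and Heyl, and none of the 8 held it. It was in 13 of the 46 promoters (28.3%) of 34 other pathway genes, among them those of Hey2, Lfng, Rbpj and Hes5, and in 25.6% of all 32851 promoters. The promoters of Dll4 and Dlk2, which rose most over the whole stage interval, and of Nrarp did not hold it. The longer GTGGGAA was in 6 of these 46, Hey2 and Lfng among them, and in 6.38% of all promoters. The first 200 bases of the promoter windows of Hey2, which differed most between the arches, and Lfng, which rose most in the pinna from E12.5 to E14.5, are shown 5′ to 3′ on the gene's strand, with TGGGAA or its reverse complement TTCCCA in capitals.
Hey2 (chr10:30842834-30843033, minus strand): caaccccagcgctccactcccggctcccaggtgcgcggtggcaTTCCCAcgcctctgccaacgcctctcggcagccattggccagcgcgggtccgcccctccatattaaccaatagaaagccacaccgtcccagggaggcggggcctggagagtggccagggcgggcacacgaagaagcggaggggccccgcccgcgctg
Lfng (chr5:140607091-140607290, plus strand): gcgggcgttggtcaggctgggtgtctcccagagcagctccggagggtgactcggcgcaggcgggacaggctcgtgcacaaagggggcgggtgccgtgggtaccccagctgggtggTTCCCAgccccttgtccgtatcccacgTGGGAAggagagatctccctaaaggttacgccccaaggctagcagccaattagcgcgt
A second match in the Hey2 window starts 3 bases before the annotated start, outside the stretch shown. A match is a run of letters and does not show that RBPJ binds there.

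**Figure D4:**
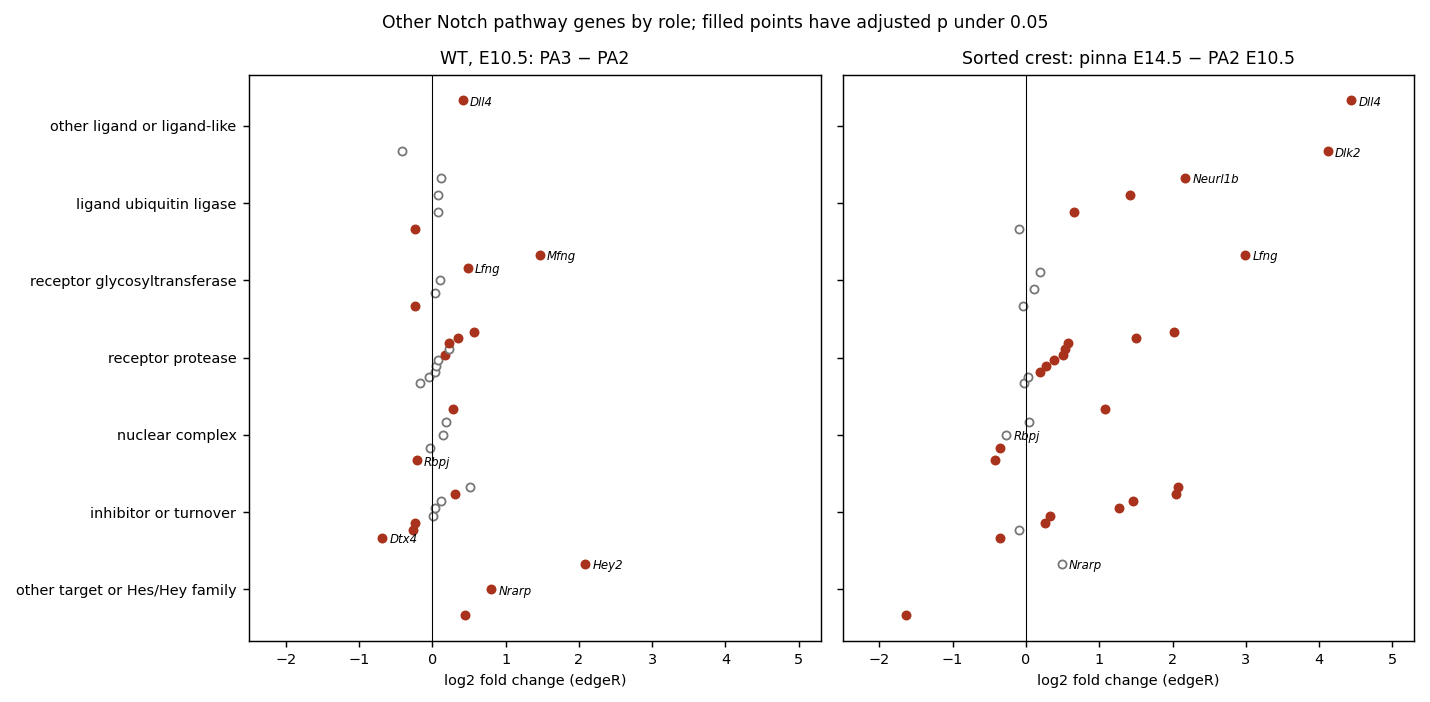
edgeR log2 fold change of the other Notch pathway genes by role, for PA3 minus PA2 in WT (left, 37 genes) and for the E14.5 pinna minus PA2 at E10.5 in sorted crest (right, 35 genes), with filled points for adjusted p under 0.05. On the left Hey2 and Mfng lie farthest out at 2.08 and 1.47; on the right Dll4 and Dlk2 do at 4.43 and 4.12, with most proteases and inhibitors right of 0.

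Loss of HIRE1 left the Notch members without a called change in either arch. By edgeR's quasi-likelihood test none of the 9 tested members was called in PA2, beside 0.438% of all tested genes (0.118% higher and 0.32% lower), and none in PA3, beside 0.216% (0.0556% higher and 0.16% lower). At these shares, the lack of a call among 9 genes does not set the members apart from other genes. At an unadjusted p under 0.05 there was 1 in PA2 (Hes1) and 2 in PA3 (Notch3 and Dll1), and DESeq2 called none either. The median log2 fold change of the members was -0.03 in PA2 and -0.10 in PA3, and that of all genes -0.0083 and -0.0019.

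In PA2 the largest value was that of Hes1, at 53.9, 47.7 and 44.3 CPM in WT and at 45.5, 41.3 and 36.9 CPM in HIRE1del. The ranges overlapped, and the log2 fold change was -0.24 (SE 0.0892, edgeR adjusted p = 0.452). Without WT replicate 1 of both arches it was -0.16 (edgeR adjusted p = 0.702), the same size as that of Hey1 (0.16, adjusted p = 0.84). In PA3 the largest were those of Dll1, where WT replicate 1 was above the rest (log2 -0.40, SE 0.175, edgeR adjusted p = 0.494; log2 -0.18, adjusted p = 0.835, without WT replicate 1 of both arches), and Notch3 (log2 -0.22, SE 0.0768, edgeR adjusted p = 0.401; log2 -0.16, adjusted p = 0.643, without that replicate), and without it Hey1 was the largest. Hey1 had a log2 fold change of 0.12 in PA2 and 0.23 in PA3 (edgeR adjusted p = 0.87 and 0.629), and of 0.30 in PA3 without WT replicate 1 of both arches (adjusted p = 0.709).

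Within single libraries, 4 of 6 ratios of members per kb did not overlap between the genotypes, although the CPM ranges of each single member did. How often ratios of other gene pairs lie apart was not measured, so this count has no background beside it. The ratio of Hes1 to Hey1 was 1.66, 1.52 and 1.55 in PA2 WT and 1.18, 1.13 and 1.45 in PA2 HIRE1del, and 0.843, 0.93 and 1 in PA3 WT and 0.711, 0.643 and 0.842 in PA3 HIRE1del. It was lower in every HIRE1del library of both arches, in PA3 by a margin of the last digit. Libraries of the 2 arches with equal replicate numbers were taken as paired, so the arches are not independent of each other. In PA3 the ratio of Notch3 to Notch2 was also lower in HIRE1del libraries (1.1 to 1.2) than in WT libraries (1.27 to 1.37). In PA2 WT libraries Jag1 exceeded Jag2 by a ratio of 3.03, 2.84 and 3.05, against 2.73, 2.69 and 2.31 for PA2 HIRE1del. The two-sided exact permutation test gave p = 0.1 for each of the 4, the smallest possible here (adjusted p = 0.124 over the 21 ratio comparisons). The ratio of Notch3 to Notch2 in PA2 and that of Jag1 to Jag2 in PA3 overlapped (exact p = 0.9 and 0.7).

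The 95% intervals of these log2 fold changes reached 0.16 to 0.51 to either side of the estimate in PA2 and 0.16 to 0.49 in PA3. For Notch2 in PA2 the interval was -10.4% to 11.6%, around the smallest estimate of all. Over the 9 members, the intervals lay between -0.67 and 0.43 in PA2 and between -0.78 and 0.53 in PA3, and a change of a size within a member's interval is not excluded. In simulated counts of the PA2 genotype comparison (14383 genes), 100 genes were changed 2-fold and 100 genes 1.5-fold, and 85% and 54% of them were called. The data themselves had 63 called genes. With the adjustment used, the share called depends on how many genes change, so these shares may be too high for the data. The changed genes were drawn at random from all tested genes, low ones included. The shares are therefore averages over genes and were not measured for the members at their own levels.

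The genotype effects in the 2 arches did not differ for any member by the interaction test (edgeR adjusted p from 0.887 to 0.992, none at an unadjusted p under 0.05), beside 0.0487% of all genes called, and DESeq2 called none. The largest difference, PA2 minus PA3, was that of Dll1 (log2 0.36, SE 0.256), followed by Notch3 (log2 0.23, SE 0.109, edgeR adjusted p = 0.887) and Jag2 (log2 0.21, SE 0.116, edgeR adjusted p = 0.887). Without WT replicate 1 of both arches that of Jag2 was the largest (log2 0.29), and those of Dll1 and Notch3 were 0.19 and 0.10, with none called. None of the 37 other pathway genes was called in either arch or between them, with 2, 3 and 2 at an unadjusted p under 0.05. The largest value in PA2 and between the arches was that of Neurl1b, singled out here after its values were seen. It was at 2.75, 3.47 and 3.91 CPM in PA2 WT and at 2.59, 2.03 and 2.07 CPM in PA2 HIRE1del, without overlap (log2 -0.60, SE 0.211, edgeR adjusted p = 0.415), and the difference from its PA3 effect was -0.75 (SE 0.292, edgeR adjusted p = 0.887). Dll4, Lfng, Hey2, Nrarp and Rbpj had log2 fold changes of 0.12, 0.0039, 0.05, -0.08 and -0.15 in PA2 and of -0.0068, -0.12, -0.13, 0.0016 and -0.07 in PA3.

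**Figure D5:**
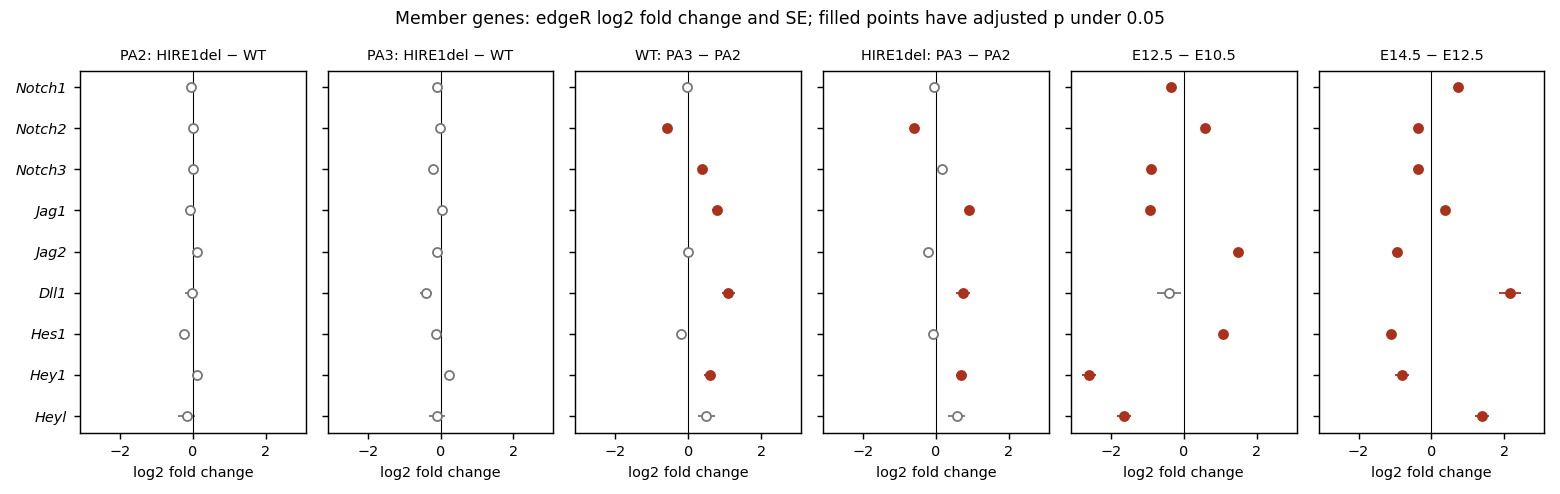
edgeR log2 fold change and SE of the 9 tested members in 6 comparisons, with n = 3 libraries per group and filled points for adjusted p under 0.05. The genotype panels hold no filled point, the arch panels 5 and 4, and the stage panels 8 and 9, reaching -2.61 for Hey1 from E10.5 to E12.5.

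PA2 at E10.5 was measured in both series, as sorted crest and as dissected WT tissue. The tables differ in sorting, reads and machine, so the group means are given side by side without a test. Notch1 had 148 CPM in sorted crest and 142 in tissue, Notch2 463 and 310, and Notch3 277 and 155. Jag1 had 51 and 112 CPM, Jag2 5.01 and 39.8, and Dll1 0.693 and 5.88, and the endothelial ligand gene Dll4 had 0.391 and 7.29. The ligand means were thus lower in sorted crest and those of Notch2 and Notch3 higher. The Notch1 libraries overlapped, at 145 to 152 CPM in sorted crest and 125 to 154 CPM in tissue, and Notch4 had means of 0 and 0.303 CPM. Hes1 had 31.7 and 48.6 CPM, Hey1 31.8 and 57.9, and Heyl 5.98 and 10.1.

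The genes whose stage pattern was most like that of the 3 members with the widest stage range were found by the root mean square difference of log2 CPM, centred on each gene, over the 9 sorted libraries. For Hey1 they were Gpr50, Fignl2 and Arid3b (0.125, 0.166 and 0.202). For Dll1 they were Slk, Rell1 and Bche (0.16, 0.173 and 0.178), and for Heyl Rasa3, Optn and Foxq1 (0.174, 0.188 and 0.198). Fignl2 and Arid3b, for example, had means of 103 and 48 CPM at E10.5, 16 and 9.26 at E12.5 and 11.7 and 6.27 at E14.5. The 9 points share 3 stages, so likeness here is mostly likeness over 3 means.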

How the data were processed

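RNA was sequenced from 12 libraries of the genotype series and 9 of the stage series, with 3 independent preparations per group. The authors aligned reads to GRCm38 (mm10) with QuasR and Rhisat2, counted alignments over UCSC known genes with the orientation set to opposite, and deposited these raw counts; bcl2fastq 2.17 and 2.20 are listed in the submitters' processing notes. The kit did not mark strand, so overlapping antisense genes share reads. Reads were 50 bases, paired-end in the genotype series and single-end in the stage series, so no test crosses the tables. No column of values was left unused. Totals were 25.8 to 32.2 and 25.8 to 49.1 M counts.

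The tools were edgeR 4.0.16, DESeq2 1.42.0 and limma 3.58.1 under R 4.3.3. Genes reaching 1 CPM in 2 or more libraries of a table entered the tests (14383 and 13438), with TMM scaling (factors 0.982 to 1.01 and 0.946 to 1.04) and a single model of group means per table. The two-sided quasi-likelihood test (glmQLFTest) gave p-values, which were adjusted over all tested genes (Benjamini-Hochberg), and called means an adjusted p under 0.05. CPM are TMM-scaled, SE is the size of the log2 fold change over the root of F, and CPM per kb uses the exonic bases deposited with the counts. Positions are from GENCODE M21. A count of 0 was set against a floor of 3 counts, and floors and depth cover counting error only.

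The members, the list of 40 other pathway genes and the marker lists (crest mesenchyme, endothelium, mural cells, epithelium, neurons, skeletal muscle, blood, glia) were chosen with earlier results of these data known. Named were the members, in each comparison at most the 4 called pathway genes with the largest change, Dll4, Lfng, Hes5, Hey2, Nrarp and Rbpj at any value, the 3 genes most alike in stage pattern to each of 3 members, and Hoxa2. Replicates differed by more than resequencing would (chi-square per degree of freedom 7 to 46.5). Whether equal replicate numbers pair the libraries was checked by correlating deviations from the group means over genes. Between PA2 and PA3 of one genotype r was 0.239 to 0.549 in WT and 0.372 to 0.415 in HIRE1del for equal numbers, so these were taken as paired and a replicate block was tried. The other comparisons were not paired by this check. Alternatives were the DESeq2 test, DESeq2 size factors, scaling by total counts only, testing without the filter, a replicate block, only the compared groups, a log2 fold change of at least 1 and leaving out each library; leaving out WT replicate 1 of both arches was chosen after seeing the data. The pipeline was tested on simulated data.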

Additional observations from a re-analysis of the deposited data

How the results depend on the processing

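The counts of members called stayed within 1.5 times the reported ones under each alternative tried except the requirement of a log2 fold change of at least 1, which left 4 called from E10.5 to E12.5, 3 from E12.5 to E14.5 and 3 from E10.5 to E14.5, by its own construction. On leaving out 1 library the counts were 0 to 0 in the genotype comparisons and their difference, 5 to 5 between the arches in WT, 4 to 5 in HIRE1del, and 8 to 8, 9 to 9 and 6 to 7 between the stages in the same order. With the replicate block they were 0 in the genotype comparisons and their difference, 6 and 6 between the arches in WT and HIRE1del, and 8, 9 and 7 between the stages; the block's changed calls between the arches are given with the results. Over 971 values of members under alternatives, 0 changed sign while called in either setting. A further 54 values that passed no test in either setting changed sign, 49 of them on leaving out libraries, and the largest was 0.1626 in size on the log2 scale. Calls were lost by 16 member values and gained by 8 under the other settings, and lost by 3 and gained by 3 on leaving out libraries. Scaling by total counts only moved the median log2 fold change of all genes from E12.5 to E14.5 to -0.13. At these depths Dll1 in sorted crest and Notch4 limit what can be said, with at most 27 counts for Dll1 before E14.5 and none for Notch4.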
